A study of Mus musculus with 2 samples.

Results

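U3 is the small nucleolar RNA (snoRNA) of early ribosomal RNA processing, and its genes and gene-length copies were followed here in the small RNA of primary murine fibroblasts (PMFs). The members were the rows of class snoRNA in the Ensembl noncoding RNA table whose transcript carries a symbol starting with Rnu3, or a symbol starting with Gm and a gene span of 210 to 220 bp. This gave 7 members, 2 Rnu3 genes (Rnu3b3 and Rnu3a) and 5 Gm copies (Gm23927, Gm25203, Gm24949, Gm22865 and Gm24826), of 199 snoRNA rows and 1596 rows in all. Small RNA sequencing (sRNA-seq) was done on 2 libraries from ear skin fibroblasts of C57BL/6 mice (C57BL/6-J in the study's methods) aged about 3 weeks. All cells were first held in G1 with 10 μM KN-93, an inhibitor of the kinase CaMKII, for 48 h, and were then transfected for 24 h. AF25-high cells received 200 nM of 3GA-AF25, an oligonucleotide that raises the level of the snoRNA AF357425, and AF25-low cells received 500 nM of GM-AF25, a gapmer that lowers it. How many mice each library came from is not given in the sources used here. Both groups were a single library, so no test between conditions was possible and no p-value is given. The oligonucleotides also differed in chemistry and in dose, and no library of a control oligonucleotide was analysed here, so these differences and the level of AF357425 cannot be told apart. The level of AF357425 was not analysed here.

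Most box C/D snoRNAs guide 2′-O-methylation of a target RNA, but U3 does not. U3 base-pairs with the precursor of the ribosomal RNAs in the nucleolus, where it is part of the particle that carries out the first cleavages on the way to 18S ribosomal RNA. The 5′ part of U3 makes the base pairs with the precursor, and the rest holds short conserved boxes, among them B, C and D, on which the proteins of the particle assemble. Mammalian genomes carry, beside the transcribed U3 genes, many copies derived from U3 that are regarded as pseudogenes, and annotation gives the mouse copies only a Gm number.

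The sequences are shown because the reads of the members can be told apart only where the members differ. They were taken from GENCODE M21 on GRCm38 and are written as DNA, 5′ to 3′ on the strand of the gene. In the Rnu3 genes the capitals mark, in order, box B, box C and box D. Rnu3b3 lies at chr11:87448627-87448842 on the plus strand, 216 bp in an intron of Tex14, and Rnu3a at chr10:40258467-40258680 on the plus strand, 214 bp outside any other gene and 359 bp from Gtf3c6, the nearest coding gene.
Rnu3b3: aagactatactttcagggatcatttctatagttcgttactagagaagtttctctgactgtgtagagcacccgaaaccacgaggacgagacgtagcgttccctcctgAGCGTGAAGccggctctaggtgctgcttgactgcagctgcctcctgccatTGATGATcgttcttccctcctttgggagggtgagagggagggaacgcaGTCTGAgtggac
Rnu3a: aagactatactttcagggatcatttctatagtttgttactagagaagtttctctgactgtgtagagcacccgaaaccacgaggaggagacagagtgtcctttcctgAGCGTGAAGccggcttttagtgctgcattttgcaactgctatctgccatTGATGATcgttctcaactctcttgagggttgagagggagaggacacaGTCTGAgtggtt

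In the 3 copies with the highest read counts over both libraries together the capitals mark the bases that differ from Rnu3b3. The third, Gm25203, had 41 reads against 40 for Gm22865. Gm23927 lies at chr19:4078297-4078512 on the minus strand, 3066 bp from Cabp2. Gm24949 lies at chr11:96032678-96032892 on the plus strand, 1847 bp from Gip. Gm25203 lies at chr12:102253472-102253687 on the minus strand, in an intron of Slc24a4 and antisense to it.
Gm23927: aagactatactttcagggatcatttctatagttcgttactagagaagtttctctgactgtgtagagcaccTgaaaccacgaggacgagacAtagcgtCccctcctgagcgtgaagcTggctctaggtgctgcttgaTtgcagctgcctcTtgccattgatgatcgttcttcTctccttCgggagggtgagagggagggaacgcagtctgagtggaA
Gm24949: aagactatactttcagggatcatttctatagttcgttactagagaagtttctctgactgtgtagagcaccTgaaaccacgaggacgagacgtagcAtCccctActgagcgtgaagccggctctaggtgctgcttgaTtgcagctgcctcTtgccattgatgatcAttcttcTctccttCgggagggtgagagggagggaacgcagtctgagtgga
Gm25203: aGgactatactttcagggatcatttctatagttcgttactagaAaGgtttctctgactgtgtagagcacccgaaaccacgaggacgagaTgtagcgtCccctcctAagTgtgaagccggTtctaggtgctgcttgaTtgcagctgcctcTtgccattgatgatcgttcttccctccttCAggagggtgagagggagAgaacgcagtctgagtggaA

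The other 2 copies are Gm22865, at chr2:121004089-121004302 on the plus strand in an intron of Tmem62, and Gm24826, at chr1:39519533-39519748 on the plus strand, 15244 bp from Cnot11. No member overlapped an exon of another gene in this annotation. In all, 11 symbols of the annotation met the rule, and 7 had a row. The sequence of Rnu3b3 was identical over all 216 nt to those of 3 further genes, Rnu3b1, Rnu3b2 and Rnu3b4, so the reads of the Rnu3b3 row stand for all 4 genes together. The fourth symbol without a row, Gm25139, was 210 bp long but only 51.5% identical to Rnu3b3.

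The copies were close relatives of Rnu3b3, and closer to it than Rnu3a was. In a global alignment Gm23927 was 95.8% identical to Rnu3b3, Gm24949 95.4%, Gm24826 94.9%, Gm25203 93.5% and Gm22865 90.3%, against 85.2% for Rnu3a. All 5 copies thus carried a U3 sequence, which the rule, based on length and symbol, did not require. Rnu3a differed from Rnu3b3 at 30 substituted positions, of which 1 lay in the first 70 nt. Gm23927, Gm24949 and Gm24826 had no difference from Rnu3b3 in those 70 nt, where Gm25203 had 3 and Gm22865 had 4.

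Part of the differences was common to the copies. Counted from 1 at the 5′ end of Rnu3b3 and with the base of Rnu3b3 written first, T98C, C150T and T179C were present in all 5 copies. C137T was present in 4 copies, with C137G in Gm22865, and C172T in 4 copies, Gm25203 being the exception. C71T was shared by Gm23927, Gm24949 and Gm24826. Gm23927 and Gm24949 were 97.2% identical to each other, and Gm23927 and Gm25203 94.0%. Gm25203 had substitutions that no other copy carried, among them A2G, G44A and A46G in its 5′ part and C109T in box B.

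**Figure D1:**
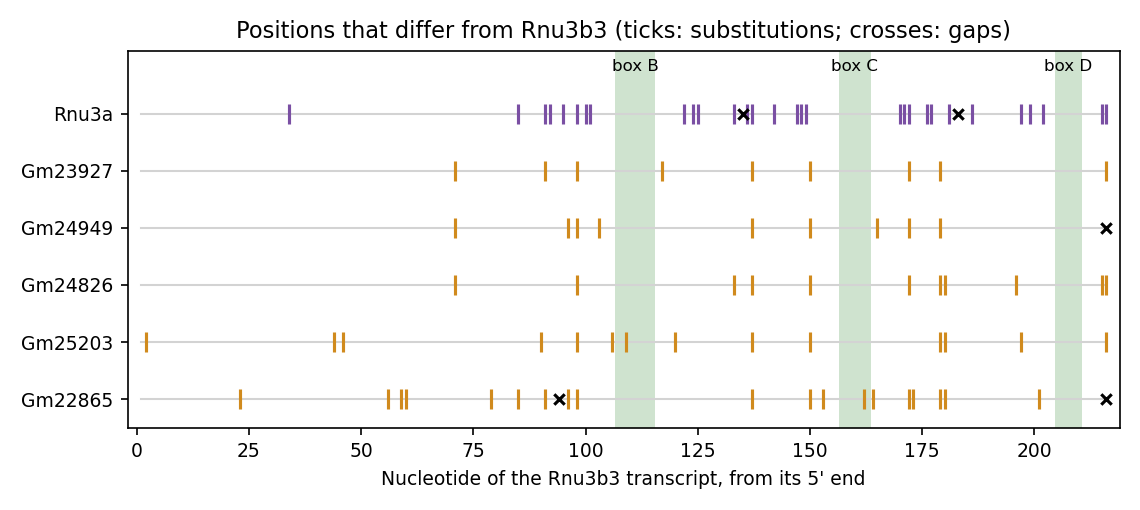
Positions at which each member differs from Rnu3b3, as the distance in nt from the 5′ end of Rnu3b3. Ticks are substitutions, crosses are gaps and shaded bands are boxes B, C and D of Rnu3b3. Gm23927, Gm24949 and Gm24826 carry no mark in the first 70 nt, Rnu3a has 1, Gm25203 has 3 and Gm22865 has 4.

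The boxes were searched by their letters on the strand of the transcript, as AGCGTGAAG for box B (without its first G), TGATGAT for box C and GTCTGA for box D. The motifs did not overlap. Box B stood at nt 107 to 115 in Rnu3b3, Rnu3a, Gm23927, Gm24949 and Gm24826, and at nt 106 to 114 in Gm22865. It was not found in Gm25203, where C109T falls in it and G106A falls on the first G that the search left out. Box C stood at nt 157 to 163 in Rnu3b3 and was found in all members but Gm22865, which has A162G in it. Box D was found in all 7 members, close to the 3′ end. Among the 26 annotated snoRNA transcripts of 200 to 230 nt, 61.5% held box B, 65.4% box C and 69.2% box D. Most of the 26 were themselves transcripts of U3 genes or members, with 2 transcripts for each of 8 symbols. These shares are thus no background for the members. Of the 8 transcripts among the 26 that belong to no U3 gene or member, 0 held any of the boxes. Over all 1507 snoRNA transcripts the shares were 1.13%, 9.16% and 8.03%. The letters AACCCCA, the reverse complement of nt 21 to 27 of AF357425 and chosen after the values were seen, stood in 0 of the 7 members and in 0.332% of the 1507 snoRNA transcripts.

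Rnu3b3 gave most of the U3 reads and was slightly lower in AF25-high cells than in AF25-low cells. Levels are given in RPM, reads scaled to the total reads of the library, and are those of short reads, not of full-length U3. Its 37574 reads in AF25-high cells made 1302 RPM, and its 42169 reads in AF25-low cells made 1449 RPM. The ratio of AF25-high to AF25-low was 0.899, with an exact Clopper-Pearson 95% interval of 0.886 to 0.911. This and all other intervals cover counting error only, since reads are not independent molecules and the spread between cultures is unknown. Rnu3b3 took 93.0% of the U3 reads in AF25-high cells and 94.1% in AF25-low cells. Per nt of gene length it had 174 and 195 reads, the highest value of the 194 snoRNA rows with an annotated length in both libraries.

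Rnu3a, the other Rnu3 gene, reached 92.7 RPM with 2676 reads in AF25-high cells, and 80.3 RPM with 2338 reads in AF25-low cells. Its ratio was 1.15, with an interval of 1.09 to 1.22, so that the Rnu3 genes stood on opposite sides of 1. Per nt of gene length Rnu3a had 12.5 and 10.9 reads, which put it at rank 9 and rank 8 of the 194 snoRNA rows.

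**Figure D2:**
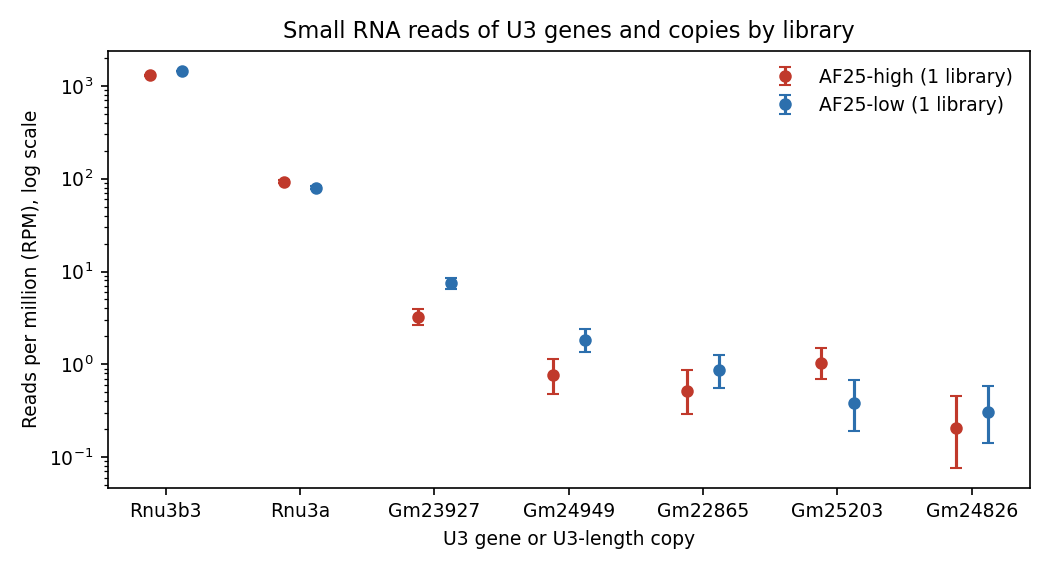
RPM of each member in AF25-high and AF25-low cells, on a log axis. Points are the value of the single library and bars its exact Poisson 95% interval of counting error. Rnu3b3, at 1302 and 1449 RPM, lies far above Rnu3a, and all Gm copies lie below 10 RPM.

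The direction of Rnu3b3 and the size of the Rnu3a ratio depended on the scaling of the libraries. With the authors' size factors in place of the library totals, the ratio of Rnu3b3 was 0.780 and that of Rnu3a 1.00, and with the total of the Ensembl table they were 1.27 and 1.63. The table total was 375931 reads in AF25-high cells and 533803 in AF25-low cells, of which the mitochondrial rRNAs had 74826 and 161146, and their part in the shift was not tested. The balance of the Rnu3 genes does not depend on the scaling. Rnu3a gave 6.65% of the Rnu3 reads in AF25-high cells (95% interval 6.41% to 6.90%) and 5.25% in AF25-low cells (5.05% to 5.46%), an odds ratio of 1.28 with an exact interval of 1.21 to 1.36. The intervals of the shares did not overlap, but without replicate libraries the difference cannot be set against the spread between cultures.

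**Figure D3:**
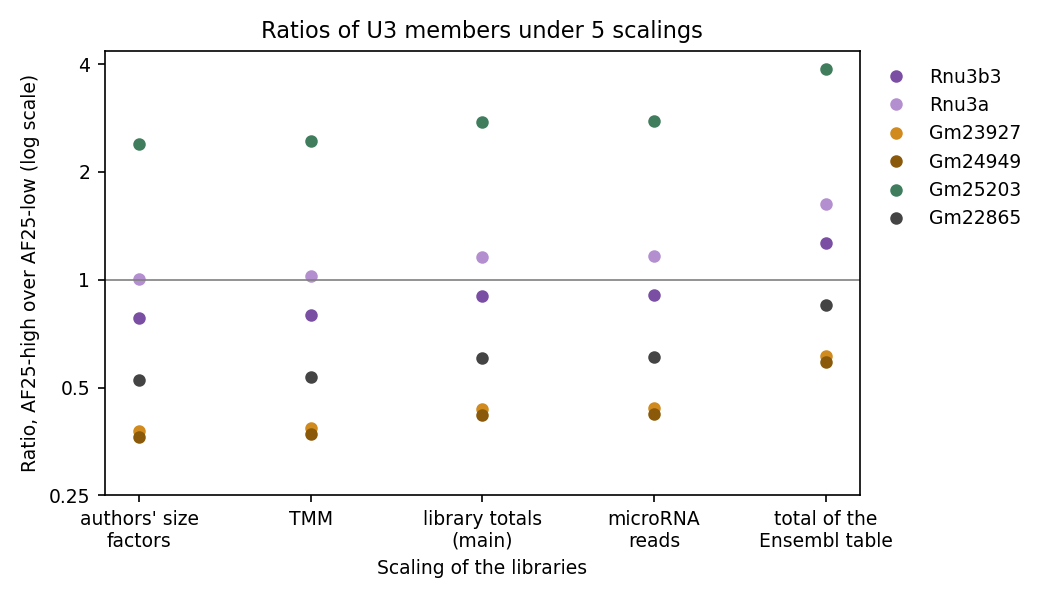
Ratio of AF25-high to AF25-low for the 6 members with at least 20 reads under 5 scalings of the libraries, on a log axis with a line at 1. The scaling on microRNA reads nearly repeats that on the library totals. Rnu3b3 lies at 0.899 with the library totals, at 0.780 with the authors' size factors and at 1.27 with the total of the Ensembl table, while Gm25203 stays above 1 and Gm23927 below 1 under each scaling shown.

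Summed over all members, U3 made up 1401 RPM of the AF25-high library against 1540 RPM of the AF25-low library, a ratio of 0.909 (0.897 to 0.922). Without Rnu3b3 the ratio of the sum was 1.08 (1.02 to 1.14), so the direction of the sum rested on that row. The other 192 snoRNA rows together had a ratio of 0.922 (0.908 to 0.937). Of the reads of the snoRNA rows of the Ensembl table, U3 gave 56.2% in AF25-high cells and 56.6% in AF25-low cells. The odds ratio of 0.986 had an interval, 0.966 to 1.01, that included 1. The study lists a higher snoRNA level in both libraries than these rows add up to, and the share of U3 in it was not computed. The share of U3 among all reads of the Ensembl table was 10.8% in AF25-high cells and 8.40% in AF25-low cells, beside the difference in mitochondrial rRNA reads given above. The part of the mitochondrial rRNA reads in this share was not tested. In bulk libraries such as these, fewer cells that express a gene and less of its RNA per cell cannot be told apart.

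The Gm copies together were lower in AF25-high cells, at 5.79 RPM against 10.9 RPM, from 167 and 316 reads. The ratio was 0.533 (0.439 to 0.645). They gave 0.413% of the U3 reads in AF25-high cells (0.353% to 0.481%) and 0.705% in AF25-low cells (0.630% to 0.787%), an odds ratio of 0.584 (0.481 to 0.707) that does not depend on the scaling. The row of Gm23927, which may hold reads of other copies, carried much of this. Without it the copies had 73 and 98 reads, the ratio of the sum was 0.751 (0.547 to 1.03) and the odds ratio was 0.824 (0.600 to 1.13), both with intervals that included 1.

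Gm23927 was the copy with the most counted reads in both libraries, at 3.26 RPM (94 reads) in AF25-high cells against 7.49 RPM (218 reads) in AF25-low cells. Its ratio was 0.435 (0.338 to 0.556), and the odds against Rnu3b3 differed by a factor of 0.484 (0.376 to 0.619). Gm24949 was at 0.762 RPM (22 reads) in AF25-high cells against 1.82 RPM (53 reads) in AF25-low cells, and its ratio was 0.419 (0.242 to 0.700). The relative level of these copies to each other was close in the libraries, with an odds ratio of 1.04 and a wide interval of 0.582 to 1.90.

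Gm25203 went the other way. It was at 1.04 RPM (30 reads) in AF25-high cells against 0.378 RPM (11 reads) in AF25-low cells, and its ratio of 2.75 had an interval of 1.34 to 6.08. Among the reads of the Gm copies its share was 18% in AF25-high cells (12.5% to 24.6%) and 3.48% in AF25-low cells (1.75% to 6.14%), an odds ratio of 6.05 (2.85 to 13.8). Against Rnu3a, also higher in AF25-high cells with the library totals, the odds ratio of Gm25203 was 2.38 (1.16 to 5.28). This reference was taken by its direction in these same data. Against Rnu3b3 the odds ratio was 3.06 (1.49 to 6.77). These values rest on 41 reads in all. Without Gm25203, an omission chosen after the values were seen, the Gm copies had 137 and 305 reads and a ratio of 0.453 (0.368 to 0.556).

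Gm22865 had 15 reads in AF25-high cells and 25 in AF25-low cells, and its ratio of 0.605 had an interval of 0.297 to 1.19 that included 1. The fifth copy, Gm24826, fell under the minimum of 20 reads in the higher library, with 6 and 9 reads, and no difference was detectable at this depth. The order of the levels below Gm23927 was Gm25203, Gm24949, Gm22865, Gm24826 in AF25-high cells and Gm24949, Gm22865, Gm25203, Gm24826 in AF25-low cells. The exact Poisson 95% intervals of neighbours among these 4 copies overlapped, except those of Gm24949 (1.36 to 2.38 RPM) and Gm22865 (0.556 to 1.27 RPM) in AF25-low cells. Gm23927, Rnu3a and Rnu3b3 had intervals that overlapped with no other member in either library.

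**Figure D4:**
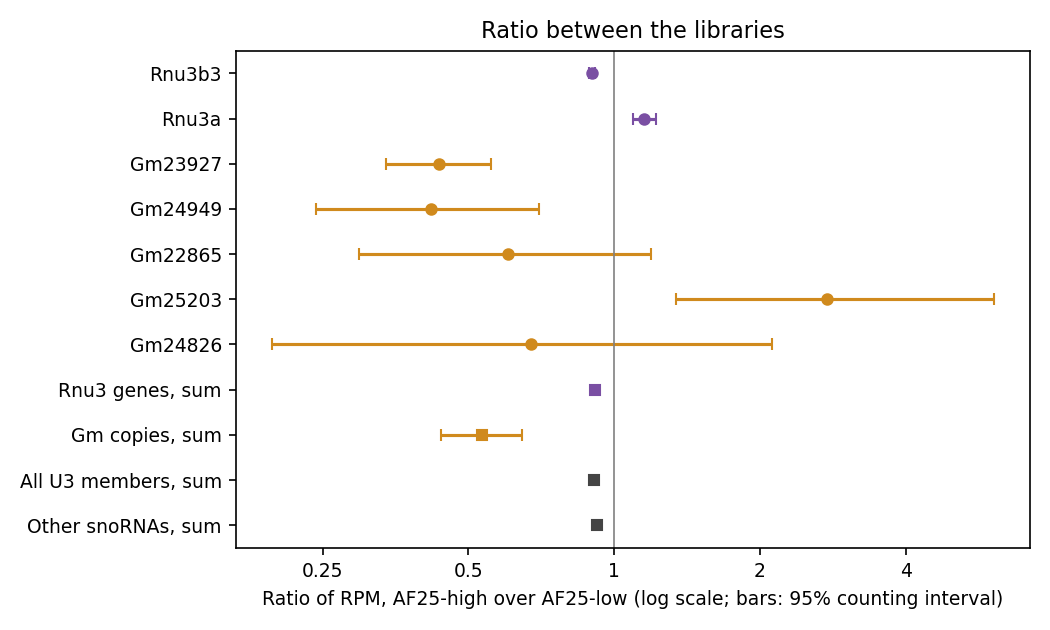
Ratio of AF25-high to AF25-low in RPM for each member (circles) and for sums (squares), on a log axis with a line at 1. Points are ratios and bars exact Clopper-Pearson 95% intervals of counting error. Gm23927 (0.435) and Gm24949 (0.419) lie below 1 and Gm25203 (2.75) above 1, with intervals that widen as reads decline.

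A minimum of 20 reads in the library with more of them was met by 6 members. Of these, 2 had a ratio above 1 and 4 a ratio below 1, where 52.5% of the 436 rows of the Ensembl table and 50% of the 136 snoRNA rows at this minimum were above 1 and 47.5% and 50% below it. The 3 members at least 2-fold apart were Gm25203, higher, and Gm23927 and Gm24949, lower, and the intervals of all 3 reached inside 2-fold. Among all rows 28.2% were at least 2-fold apart, 16.1% higher and 12.2% lower, and among the snoRNA rows 18.4%, 6.62% higher and 11.8% lower. The median log2 ratio, with 0.5 reads added to each value, was -0.43 over the 6 members, -0.03 over the snoRNA rows and 0.06 over all rows. Gm25203 met the minimum only in AF25-high cells and Gm22865 only in AF25-low cells. Each thus entered through the library where it was higher, and its side of 1 is no separate result. With 6 members, most of them at low read counts, these counts and medians are a description.

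The split of reads among the members is uncertain, and the sequences set only part of this uncertainty. A read that fits several loci was counted by the authors at 1 of them, the most highly expressed, so reads from stretches that a copy shares with Rnu3b3 would be counted for Rnu3b3. The reverse, reads of Rnu3b3 with an error that were counted for a copy, was not tested. Rnu3b3 had 37574 and 42169 reads, against 94 and 218 for Gm23927, which differs from it at 9 positions. Of the 199 windows of 18 nt in Gm23927, 40.7% occur in Rnu3b3 and 19.6% in no other member. For Gm24949 these shares were 48.0% and 21.7%, for Gm24826 42.2% and 29.6%, for Gm25203 31.2% and 49.7%, for Gm22865 22.8% and 73.1%, and for Rnu3a 27.9% and 72.1%. Gm22865 had the largest share of such windows among the members, with 40 reads in all, while Gm23927 had the smallest, with 312 reads in all. Gm24949 shared 60 of its 103 windows that are in neither Rnu3 gene with Gm23927. Gm24826 shared 50 of 115 with it, Gm25203 31 of 137 and Gm22865 2 of 152. By the same rule, reads from such shared windows would be counted for Gm23927, the copy with the most reads. Its row may thus hold reads of other copies, and the read counts of the copies do not compare their levels directly. Rnu3b3 itself had 33.7% of its windows in no other member. The values used here hold no positions of reads within a gene, so the part of U3 that gave the reads is unknown. The libraries are of small RNA, and the paper describes all their tRNA reads as fragments, far shorter than the members (214 to 216 bp). The U3 reads are thus taken as reads of fragments, and the amount of full-length U3 was not measured. How many mismatches the alignment allowed is not given in the sources used here.

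**Figure D5:**
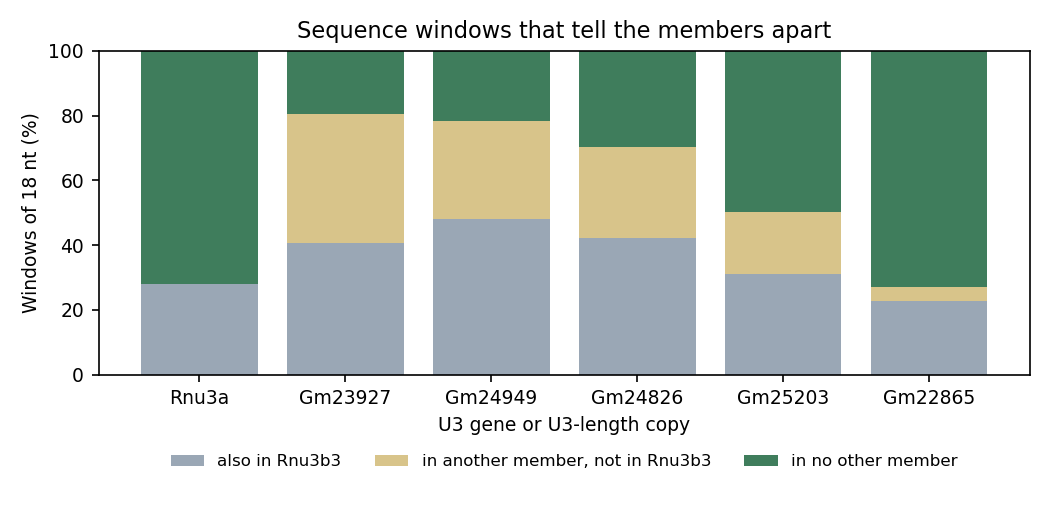
Windows of 18 nt of each member other than Rnu3b3, in percent, as stacked bars for those also in Rnu3b3, those in another member but not in Rnu3b3, and those in no other member. Gm23927 has the lowest share of windows of its own (19.6%) and Gm22865 the highest (73.1%), with Rnu3a at 72.1%.

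Other RNAs of ribosomal RNA processing are given for comparison. Of 9 listed RNAs 8 had a row and 5 met the minimum of 20 reads, 3 with a ratio above 1 and 2 below, with 1 at least 2-fold apart. Over all 436 rows at this minimum 52.5% were above 1, 47.5% below and 28.2% at least 2-fold apart, and with 5 RNAs nothing particular to the list can be read from these counts. Rmrp, the RNA of RNase MRP, which cuts the precursor between the small and the large subunit parts, had 6314 and 16903 reads and a ratio of 0.377 (0.366 to 0.388). Snord118 (U8), which is needed for the processing of the large subunit rRNAs, had 1560 and 2529 reads and a ratio of 0.622 (0.584 to 0.663). Both were lower relative to their AF25-low level than U3 was. Snord14d, a gene of U14, which acts in 18S rRNA formation, had 1337 and 847 reads and a ratio of 1.59 (1.46 to 1.74), and Snord14e, another U14 gene, had 47 and 39 reads and a ratio of 1.22 (0.778 to 1.91). Snord13 (U13), which guides acetylation of 18S rRNA, had 60 and 37 reads and a ratio of 1.64 (1.07 to 2.53). Snord14a, Snora73a and Snora73b had 8 reads or fewer in each library. The sum of the list had a ratio of 0.462 (0.451 to 0.473), most of its reads being those of Rmrp.

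Among the 9 other snoRNA rows that reached 1000 reads in either library, those with a ratio closest to that of Rnu3b3 were Snord2 (0.913), Snord104 (0.765) and Gm24357 (1.14), at absolute differences in log2 ratio of 0.02, 0.23 and 0.35. This likeness is over 2 libraries only. As for the cell type, 3 of 6 listed microRNA genes of mesenchymal cells had a row, with 2194 reads in AF25-high cells and 2183 in AF25-low cells. Of the epithelial list Mir200a alone had a row, with 6 and 0 reads. No listed microRNA gene of blood, endothelium, striated muscle or neurons had a row. These missing rows cannot show that a cell type was absent, since part of the mesenchymal list had no row either. The study lists 946057 RPM of microRNA reads in AF25-high cells and 951864 RPM in AF25-low cells. All rows of the Ensembl table together made 13027.5 and 18341.4 RPM, so most microRNA reads were counted outside it.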

How the data were processed

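Total RNA of the 2 libraries was sequenced as small RNA, and the authors mapped reads with sRNAbench and Bowtie to GRCm38, counting sense reads at 1 locus each. Their versions were not given in the sources used here. In the Ensembl table the deposited signal values are counts divided by a size factor per library, with a minimum expression of 5. Columns with the authors' fold changes and p-values, and the RNAcentral table, were not used. The smallest value above 0 of a column was taken as 1 read, which made 100% of values whole (relative tolerance 1e-06). RPM used library totals of 28856715 (AF25-high) and 29103700 (AF25-low) reads, derived from tRNA reads and the RPM the study lists for 38 anticodons with at least 100 RPM. The totals are medians, and 12 (AF25-high) and 13 (AF25-low) of the 38 anticodons gave a total within 1% of them, so RPM and ratios carry this uncertainty beside the counting intervals.

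Ratios and shares have exact Clopper-Pearson 95% intervals, and odds ratios exact conditional ones (scipy 1.17.1). GENCODE M21 matched 1571 of 1596 rows. Sequences were aligned with Biopython 1.88, TMM came from edgeR 4.0.16, and scripts were tested on simulated data. The text names all Rnu3 genes, Gm copies with 20 reads or more in either library (Gm24826, below it, is named to complete the set), the processing list and the 3 most alike snoRNAs. Members and lists were chosen with earlier results of these data known. Alternatives were 4 scalings, read minimums, the pseudocount, the gene span and leaving out members.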

Additional observations from a re-analysis of the deposited data

How the results depend on the processing

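Relative to the library totals, the authors' size factors shifted every log2 ratio by -0.20, TMM by -0.18 and the total of the Ensembl table by 0.49. The U3 sum was 0.789 with the authors' size factors, 0.805 with TMM and 1.28 with the table total, and 1.08 without Rnu3b3, so its direction turned under the last 2. The Rnu3 genes were at 0.791, 0.808 and 1.28, and Rnu3b3 alone turned to 1.27 with the table total. The Gm copies were at 0.750 with the table total and at 0.751 without Gm23927, where their odds ratio among U3 reads was 0.824. The processing list was at 0.401, 0.409 and 0.650. With a minimum of 50 reads 1 member was higher, against 2 at 20 reads, and with the table total 1 member was at least 2-fold apart, against 3, since fewer members pass or all ratios shift. Scaling on microRNA reads shifted every log2 ratio by only 0.009, since microRNA reads make up most of each library. It nearly repeats the scaling on library totals, so it is no separate check, and it moved none of 19 values beyond its interval or count limit. The minimums of 10 and 0 reads moved none of 4 values each, and neither did a wider gene span (2 values). No paired analysis was possible because each condition has 1 library. Low read counts limit what can be said of Gm22865, Gm24826 and Gm25203.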
